A study of Trichoderma reesei with 8 samples.

Results

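Of the 9143 genes of *Trichoderma reesei* in the table, 176 (1.92%) had higher transcript levels in the wildtype in light than in darkness and were also upregulated in darkness in ∆*ypr2*, the strain without the transcription factor gene *ypr2*. These members were chosen on group means of counts per Mio (CPM, the expected count of a gene divided by the total of the library), with 0.5 CPM added to every mean. A member had a mean of at least 5 CPM in at least 1 group, a ratio of ∆*ypr2* in darkness to the wildtype in darkness of at least 2.8, and a ratio of the wildtype in light to the wildtype in darkness of at least 2. In all, 183 genes met these criteria, and 7 of them are among 21 genes that the choice left out. The study grew the deletion strain ∆*ypr2* in constant light, the wildtype QM6a in constant light, ∆*ypr2* in constant darkness and QM6a in constant darkness, with 2 cultures (biological replicates) in each of the 4 groups. Light was at 1600 lx, and all 8 cultures were of mycelium in liquid minimal medium with 1% cellulose and 0.1% peptone at 28 °C for 72 h, from spores of plates kept in darkness for 14 days. Dark cultures were harvested under red safety light. The labels call ∆*ypr2* a recombinant strain. A second deletion strain or a strain with *ypr2* put back was not analysed here. An effect of the deletion and of this one strain therefore cannot be told apart. The study also reported less biomass of ∆*ypr2* than of the wildtype in darkness, and no significant difference in light. In darkness, an effect of the deletion on transcripts and an effect of altered growth thus cannot be told apart either.

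YPR2 belongs to the fungal zinc cluster transcription factors and lies in a gene cluster for polyketide (sorbicillinoid) biosynthesis. In filamentous fungi, photoreceptors such as the White Collar proteins of *Neurospora crassa* adjust transcription of genes for pigments, stress defence, spore formation and metabolism to light, and many genes first found as light induced were found again as induced by starvation or during conidiation. In *T. reesei*, light and darkness also alter the use of cellulose as a carbon source.

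The libraries held between 16.9 and 22.9 Mio expected counts, and a single count was worth 0.0436 to 0.0592 CPM. The transcript of *ypr2* (TR_102497) had 0 and 0 counts in ∆*ypr2* in light, 566 and 548 in the wildtype in light, 10 and 6 in ∆*ypr2* in darkness, and 3040 and 2636 in the wildtype in darkness, which is as the labels state. Replicate libraries differed by more than counting noise in every group, and the spread was largest between the ∆*ypr2* cultures from darkness (chi-square per degree of freedom 36.0, against 6.15 to 12.5 in the other groups). Members shared in this: the second dark ∆*ypr2* culture was above the first for 145 of 176 members, with a median ratio of 1.13, while the median over all 7639 genes with a group mean of at least 5 CPM was 1.02. The part of this difference in the levels of ∆*ypr2* in darkness was not tested.

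The members together took 2.72% and 2.81% of all counts in ∆*ypr2* in light, 2.90% and 3.03% in the wildtype in light, and 2.39% and 2.65% in ∆*ypr2* in darkness. In the wildtype in darkness they took 0.490% and 0.546%. For all 176 members, every library of the other 3 groups was above both libraries of the wildtype in darkness, against 35.4% of all genes at the minimum level, which the choice on these groups favours and from which nothing is read. The 2 ratios of the choice, which are given here only as a description, had medians of 4.15 (2.81 to 39.8) for ∆*ypr2* over the wildtype in darkness and 3.76 (2.01 to 141) for light over darkness in the wildtype. Both ratios have the dark wildtype cultures in the denominator. Of 392 genes that met the first ratio, 46.7% met the second, and 10.3% of all genes at this level did, which is read only as a description since the shared denominator alone moves both.

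**Figure D1:**
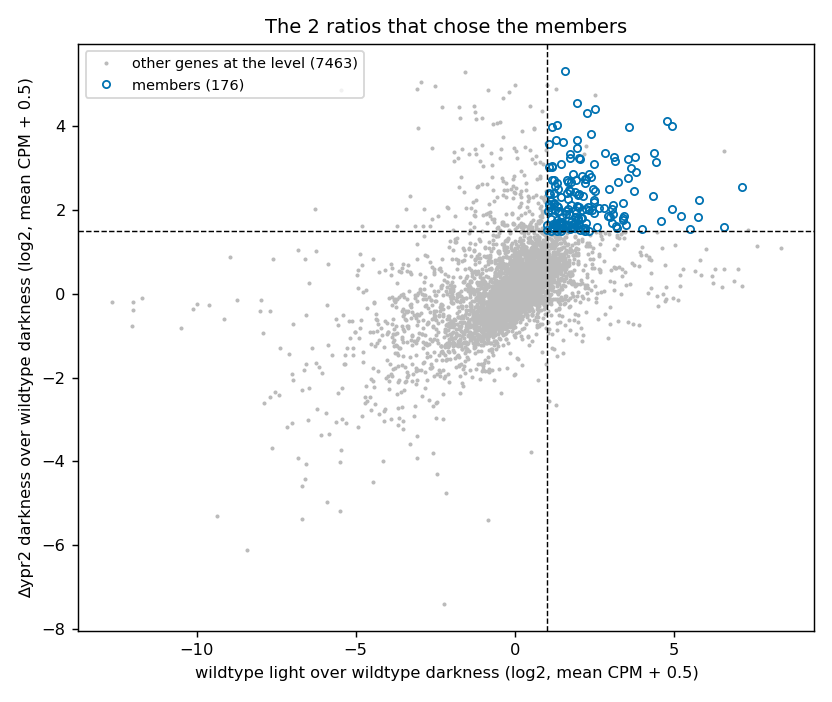
Ratio of light to darkness in the wildtype (horizontal axis) against the ratio of ∆*ypr2* to the wildtype in darkness (vertical axis), both log2 of group mean CPM + 0.5, for genes with a group mean of at least 5 CPM. Circles are the 176 members, points the other genes, dashed lines the thresholds of 2 and 2.8; the members fill the upper right corner, and 7 points there are genes that the choice left out.

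Genes just inside the threshold in darkness were TR_76620 (glycerol-3-phosphate dehydrogenase, ratio 2.811), TR_68427 (2.819) and TR_123979 (a taurine dioxygenase, 2.824). Just outside were TR_74971 (2.798), TR_27181 (an MFS permease, 2.788) and TR_106294 (2.785). For the ratio of light to darkness, TR_76571 (2.01), TR_57524 (2.03) and TR_75027 (2.06) lay just inside, and TR_81410 (1.9996), TR_106259 (1.998) and TR_105851 (1.991) just outside. Of the minimum level, TR_68427 (highest group mean 5.10 CPM), TR_80335 (6.12 CPM) and TR_103366 (6.65 CPM) were nearest above it, and TR_106654 (4.69 CPM), TR_81058 (4.53 CPM) and TR_122187 (4.27 CPM) nearest below. Where the choice was made on the first culture of each group alone, 167 genes met it, and 134 of these (80.2%) met it also on the second cultures. On the second cultures alone 197 genes met it, and 68.0% of these met it also on the first. Of the 167 genes, 166 were higher in ∆*ypr2* than in the wildtype in darkness in the second cultures, with a median log2 ratio of 2.15, and 167 were higher in light than in darkness in the wildtype, with a median log2 ratio of 1.84. These are the ratios of the choice, and the shares of all genes with such a direction were not counted. The values are therefore only a description of the replicates.

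The level of ∆*ypr2* in darkness relative to that of the wildtype in light differed widely between members. The ratio of ∆*ypr2* in darkness to the wildtype in light had a median of 1.13 over members and lay between 0.0316 and 13.3. It was within 2-fold for 118 members (67.0%), at least 2-fold above for 33 and at least 2-fold below for 25. Both dark ∆*ypr2* libraries were above both light wildtype libraries for 90 members (51.1%), both were below for 65 (36.9%), and the libraries overlapped for 21. Over all 7639 genes at the minimum level, 35.0% were above and 48.0% below in this way. Both groups were used in the choice, which asked that each be above the wildtype in darkness, so that these values are a description. The share of all genes within 2-fold was not counted, and nothing is read from that of the members. The members at least 2-fold above had a median of 11.3 CPM in the wildtype in light, while those at least 2-fold below had a median of 59.7 CPM there and a median log2 ratio of light to darkness in the wildtype of 3.76.

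**Figure D2:**
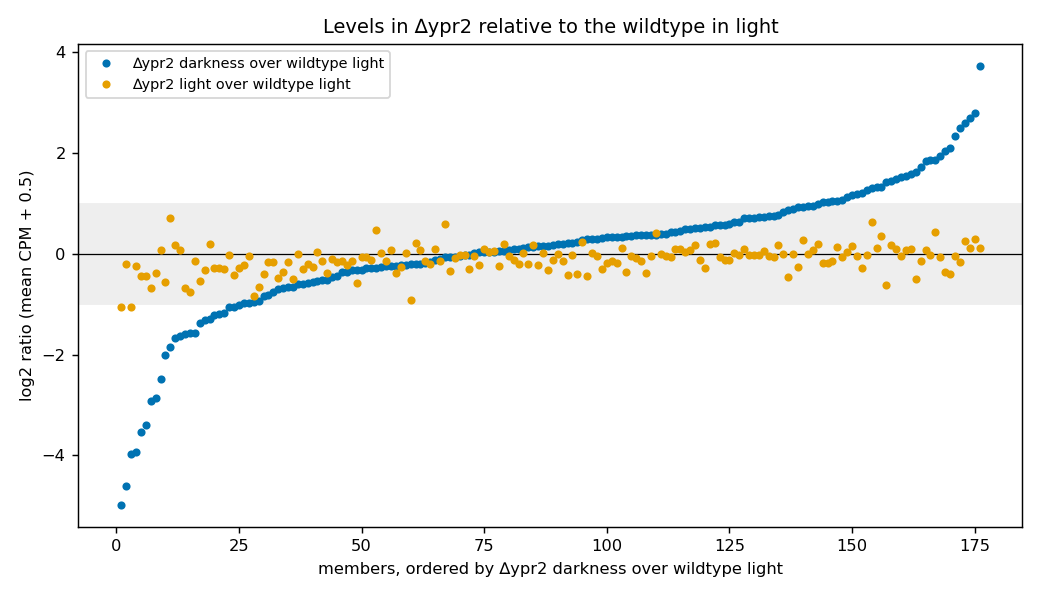
Levels of the 176 members in ∆*ypr2* in darkness (blue) and in ∆*ypr2* in light (orange) relative to the wildtype in light, as log2 ratios of group mean CPM + 0.5; each position on the horizontal axis is 1 member, ordered by the blue ratio, and the grey band marks a 2-fold difference. The blue ratios run from -4.98 to 3.73, with 118 in the band, while the orange ratios of the same members run from -1.05 to 0.71.

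Genes of spore formation and light response formed a group of 6. The gene *ccg-1* (TR_73516, at 72166 to 72589 of scaffold 1), homologue of a clock-controlled and glucose-repressed gene of *N. crassa*, had 1235 and 1222 CPM in ∆*ypr2* in light and 1552 and 1602 CPM in the wildtype in light. In darkness it had 993 and 987 CPM in ∆*ypr2*, against 62.6 and 51.5 CPM in the wildtype. Dark ∆*ypr2* cultures thus had 62.8% of the level of the wildtype in light, and no groups overlapped. The conidiation gene *con-10* (TR_5084), which in *N. crassa* is transcribed in developing spores and after light, stood at 9.96 and 7.29 CPM in ∆*ypr2* in light and 9.64 and 12.2 CPM in the wildtype in light. Its dark levels were 4.29 and 3.88 CPM in ∆*ypr2* and 0.416 and 0.272 CPM in the wildtype, where a library held few counts. The gene *dtr1* (TR_102953), annotated after the yeast transporter that exports dityrosine to the spore wall, showed the same order of groups.

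For *dtr1* the values were 40.5 and 36.4 CPM in ∆*ypr2* in light, 44.6 and 45.5 CPM in the wildtype in light, 19.9 and 25.3 CPM in ∆*ypr2* in darkness and 6.92 and 7.35 CPM in the wildtype in darkness. The protein BLI-3 (TR_21509) carries the name of a blue light inducible gene of *N. crassa*. Its transcript had 98.5 and 111 CPM in ∆*ypr2* in light, 106 and 93.9 CPM in the wildtype in light, 95.3 and 110.3 CPM in ∆*ypr2* in darkness and 25.4 and 22.9 CPM in the wildtype in darkness. The first 3 groups overlapped, and only the wildtype in darkness stood apart. A C2H2 zinc finger regulator (TR_4921) had between 50.9 and 52.2 CPM in light in both strains, 56.2 and 62.5 CPM in ∆*ypr2* in darkness and 19.3 and 19.8 CPM in the wildtype in darkness. The gene *ccg-14* (TR_82662), related to a small secreted protein gene of *N. crassa*, went the other way than *con-10*, with 73.3 and 48.3 CPM in ∆*ypr2* in darkness, above the 16.6 and 22 CPM of the wildtype in light. In ∆*ypr2* in light it had 9.55 and 17.4 CPM and in the wildtype in darkness 4.26 and 9.1 CPM.

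A list of 7 genes of asexual development held *ccg-1*, *con-10*, *dtr1*, *ccg-14* and the non-members *con-13*, *ccg-13* and *medA*. The regulator gene *medA* (TR_123713) was highest in the wildtype in darkness, with 303 and 339.9 CPM in ∆*ypr2* in light, 239.5 and 229 CPM in the wildtype in light, 498 and 539 CPM in ∆*ypr2* in darkness and 1022 and 1031 CPM in the wildtype in darkness. The summed level of the list, most of which in the wildtype in darkness was *medA*, was 1628 and 1689 CPM in ∆*ypr2* in light, 1904 and 1963 CPM in the wildtype in light, 1726 and 1713 CPM in ∆*ypr2* in darkness, and 1117 and 1128 CPM in the wildtype in darkness. In every other group most of the sum was *ccg-1*, which the choice took for its lower level in the wildtype in darkness. Nothing is therefore read from the order of these sums. The gene *con-13* (TR_105808), another conidiation gene, had 4.4 and 4.97 CPM in ∆*ypr2* in darkness and at most 0.104 CPM in the 6 other libraries, where it was listed at 0 in 1 culture of each strain from light. In bulk mycelium a change in the share of cells that form spores and a change in the RNA of each cell cannot be told apart.

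**Figure D3:**
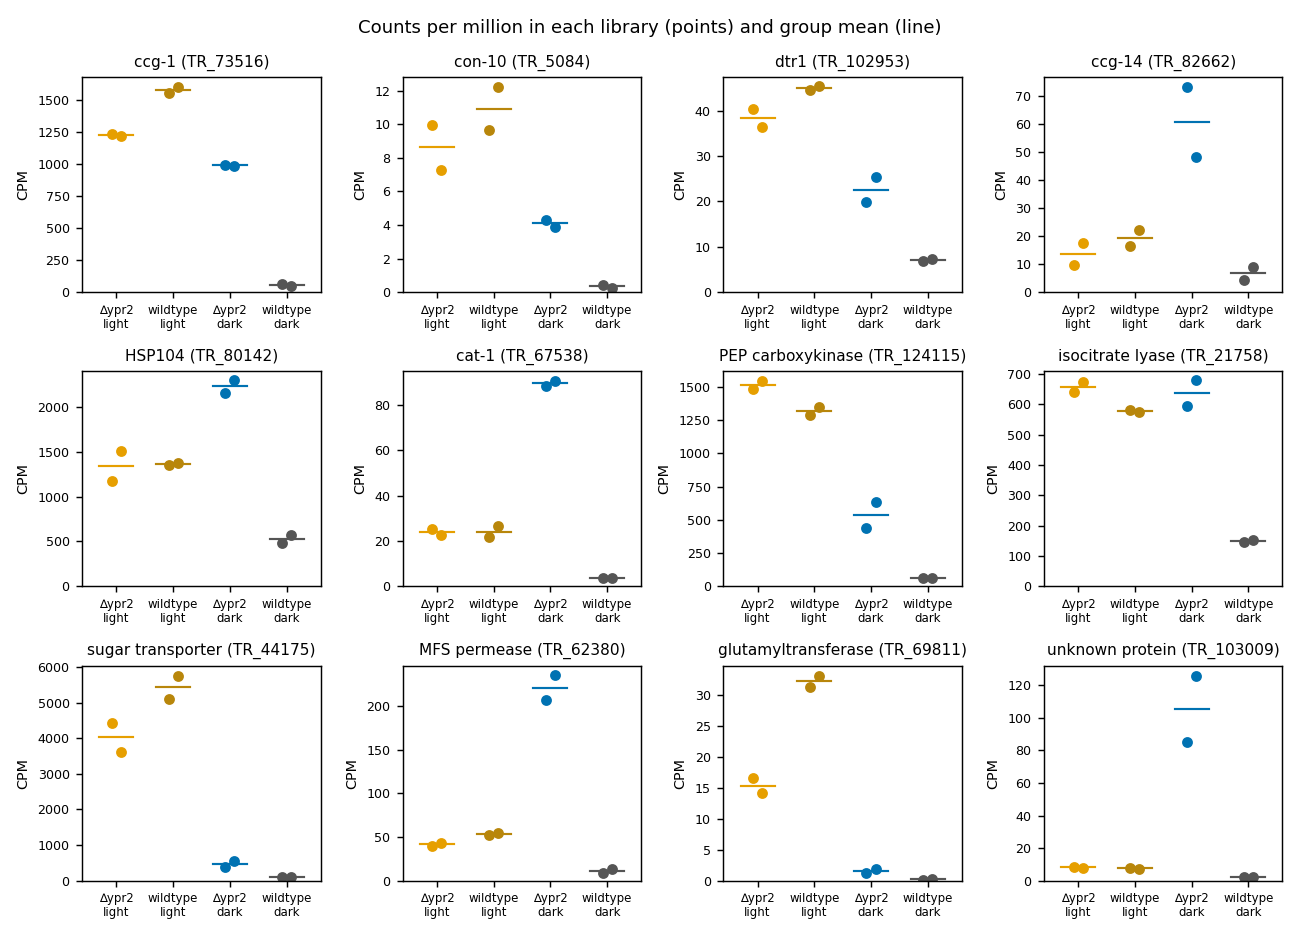
CPM of 12 members in each of the 8 libraries (points) with the mean of each group (lines), in the order ∆*ypr2* in light, wildtype in light, ∆*ypr2* in darkness, wildtype in darkness; each panel has its own linear axis from 0. The wildtype in darkness is lowest in every panel, and *ccg-14*, *HSP104*, *cat-1*, the MFS permease TR_62380 and TR_103009 are highest in ∆*ypr2* in darkness.

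All 5 members with a function in stress defence had both dark ∆*ypr2* libraries above both light wildtype libraries, as did 90 of the 176 members and 35.0% of all genes at the minimum level. Since both groups were used in the choice, this is a description. The HSP104 homologue (TR_80142), in yeast a chaperone that dissolves protein aggregates, had 1168 and 1510.3 CPM in ∆*ypr2* in light, 1353 and 1375 CPM in the wildtype in light, 2157 and 2302 CPM in ∆*ypr2* in darkness and 485 and 577 CPM in the wildtype in darkness. The second AAA ATPase of this family (TR_2687) had 139 and 263 CPM in ∆*ypr2* in darkness, a pair that itself differed widely, against 44.3 and 47.2 CPM in the wildtype in darkness. Its light levels were 81.3 and 102 CPM in ∆*ypr2* and 105 and 86.7 CPM in the wildtype. The gene *cat-1* (TR_67538) encodes a catalase, which breaks down hydrogen peroxide. It had 25.2 and 22.5 CPM in ∆*ypr2* in light, 21.8 and 26.5 CPM in the wildtype in light, 88.5 and 90.5 CPM in ∆*ypr2* in darkness and 3.8 and 3.7 CPM in the wildtype in darkness. Its level in dark ∆*ypr2* cultures was thus 3.65-fold that of the wildtype in light. The copper/zinc superoxide dismutase SOD1 (TR_110471), which converts superoxide, had 16.5 and 19.4 CPM in ∆*ypr2* in darkness, against 1.77 and 2.51 CPM in the wildtype in darkness, and between 10.7 and 12.2 CPM in the 4 light cultures. An iron-dependent peroxidase (TR_5182) had 25.5 and 30.8 CPM in ∆*ypr2* in darkness, against 3.95 and 3.87 CPM in the wildtype in darkness, and between 9.64 and 11.4 CPM in light.

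Several members belong to central carbon metabolism, and they differed in how far the dark level in ∆*ypr2* reached the light level. Phosphoenolpyruvate carboxykinase (TR_124115), which commits carbon to gluconeogenesis, had 1479 and 1541 CPM in ∆*ypr2* in light and 1284 and 1346 CPM in the wildtype in light. In darkness it had 439 and 637 CPM in ∆*ypr2*, against 59.6 and 61.9 CPM in the wildtype. The dark level in ∆*ypr2* therefore was 8.79-fold that of the wildtype in darkness but only 40.9% of that of the wildtype in light. Isocitrate lyase (TR_21758) and malate synthase (TR_79271), the specific enzymes of the glyoxylate cycle, came closer to the light level, with 110.2% and 84.8% of it. Isocitrate lyase had 641 and 674 CPM in ∆*ypr2* in light, 582 and 575 CPM in the wildtype in light, 593 and 682 CPM in ∆*ypr2* in darkness and 145 and 153 CPM in the wildtype in darkness. Malate synthase had 371 and 386 CPM in ∆*ypr2* in light, 353 and 364 CPM in the wildtype in light, 277 and 332 CPM in ∆*ypr2* in darkness and 99.1 and 107 CPM in the wildtype in darkness. Further members annotated as metabolic enzymes were NAD-dependent glutamate dehydrogenase (TR_120943), a formate dehydrogenase (TR_121298), which oxidises formate, a 4-aminobutyrate aminotransferase (TR_121405) and *faa2* (TR_4941), annotated as a phenylacetyl-CoA ligase. The aminotransferase, which degrades 4-aminobutyrate, had 53.3 and 63.5 CPM in ∆*ypr2* in darkness, against 5.93 and 4.58 CPM in the wildtype in darkness, and the wildtype in light was higher still with 104 and 133 CPM. Formate dehydrogenase had 334 and 345 CPM in ∆*ypr2* in light, 268 and 266 CPM in the wildtype in light, 629 and 713 CPM in ∆*ypr2* in darkness and 121 and 132 CPM in the wildtype in darkness, which places dark ∆*ypr2* cultures above the other 3 groups.

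The 15 carbohydrate-active enzymes and related proteins contained no cellulase by their annotation, and several of them act on storage sugars. The trehalose phosphorylase/synthase of family GT4 (TR_121491) had 709.8 and 948 CPM in ∆*ypr2* in light, 689 and 767 CPM in the wildtype in light, 1152 and 961 CPM in ∆*ypr2* in darkness and 148 and 243 CPM in the wildtype in darkness. The GH37 trehalase (TR_123226), which splits trehalose into glucose, had 209 and 193 CPM in ∆*ypr2* in light, 205 and 208 CPM in the wildtype in light, 92.4 and 119 CPM in ∆*ypr2* in darkness and 23.8 and 24.2 CPM in the wildtype in darkness. A GH15 alpha-glycosidase annotated as a possible trehalase (TR_65333) had between 85.6 and 94.3 CPM in light in both strains, 98 and 119 CPM in ∆*ypr2* in darkness and 29.5 and 27.7 CPM in the wildtype in darkness. By annotation, the members thus held a trehalose phosphorylase/synthase, a trehalase and a possible trehalase. The direction in which the first of these enzymes works was not tested. LXR1 (TR_74194), annotated as a mannitol dehydrogenase, had 579.6 and 593 CPM in ∆*ypr2* in light, 651 and 659 CPM in the wildtype in light, 412 and 416 CPM in ∆*ypr2* in darkness and 46.1 and 56.3 CPM in the wildtype in darkness. Enzymes with substrates of the fungal cell wall were a GH17 glucan endo-1,3-glucosidase (TR_39942), a GH55 glucanase (TR_56418), the chitinase CHI18-13 (TR_119859) and N-acetylglucosamine-6-phosphate deacetylase (TR_79671), which works in the use of the chitin monomer. The deacetylase was highest in ∆*ypr2* in darkness, with 153 and 167 CPM, against 20.9 and 29.8 CPM in the wildtype in darkness and between 60.5 and 78.0 CPM in light. CHI18-13 had 24.6 and 28.2 CPM in ∆*ypr2* in darkness, against 5.82 and 4.9 CPM in the wildtype in darkness, and between 11.2 and 13.5 CPM in light.

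Transporters made up 14 members and fell into both directions relative to the light level. An MFS proton-sugar transporter (TR_44175) had the highest CPM of the members in light (not divided by length), with 4442 and 3627 CPM in ∆*ypr2* and 5118 and 5759.6 CPM in the wildtype. In darkness it had 371 and 559 CPM in ∆*ypr2*, against 108 and 88.3 CPM in the wildtype. Although this was 4.72-fold higher, it was 8.55% of the wildtype level in light. An oligopeptide transporter (TR_46794) and the potassium/proton antiporter 1 (TR_35777) also had dark ∆*ypr2* levels between those of the wildtype in darkness and those of the light cultures. The oligopeptide transporter had 1673 and 1493 CPM in ∆*ypr2* in light, 1601 and 1597 CPM in the wildtype in light, 704 and 826 CPM in ∆*ypr2* in darkness and 202 and 219.7 CPM in the wildtype in darkness. The antiporter had 665 and 642 CPM in ∆*ypr2* in light, 608 and 635 CPM in the wildtype in light, 168 and 231 CPM in ∆*ypr2* in darkness and 62.3 and 54.5 CPM in the wildtype in darkness. On the other side were an MFS permease annotated as a possible galactose permease (TR_62380) and the MFS permease TR_105260. TR_62380 had 39.8 and 43.1 CPM in ∆*ypr2* in light, 52.3 and 54.8 CPM in the wildtype in light, 207 and 235 CPM in ∆*ypr2* in darkness and 8.42 and 13 CPM in the wildtype in darkness. TR_105260 had 88 and 119.9 CPM in ∆*ypr2* in darkness, against 7.9 and 7.68 CPM in the wildtype in darkness, and between 19.4 and 20.3 CPM in light. A plasma membrane H+ ATPase (TR_76238), the type of pump that drives such transporters, was likewise highest in dark ∆*ypr2* cultures, with 499 and 649 CPM, against 69 and 72.3 CPM in the wildtype in darkness and between 150.1 and 178 CPM in light.

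Among 12 regulators and signalling proteins, 8 were zinc cluster (Zn2Cys6) regulators, the family of YPR2 itself. The share of this family among all regulators was not counted, so that this is only a description. TR_80291 had 117 and 123 CPM in ∆*ypr2* in light, 119.6 and 117 CPM in the wildtype in light, 93 and 111 CPM in ∆*ypr2* in darkness and 31.9 and 30.4 CPM in the wildtype in darkness. TR_72611 had 79.1 and 104 CPM in ∆*ypr2* in darkness, against 23.6 and 21.7 CPM in the wildtype in darkness, and between 111 and 129 CPM in light. A homologue of Rpn4 (TR_82512), in yeast the activator of proteasome genes, varied between replicates in both strains, with 124 and 225 CPM in ∆*ypr2* in light, 157 and 206 CPM in the wildtype in light, 229.9 and 258 CPM in ∆*ypr2* in darkness and 29.7 and 47.7 CPM in the wildtype in darkness. A bZIP regulator related to activating transcription factors (TR_109538) was the only one of the regulators at least 2-fold above the light level, with 22.2 and 18.3 CPM in ∆*ypr2* in darkness, against 1.3 and 1.42 CPM in the wildtype in darkness and between 5.86 and 7.82 CPM in light. A cation transporting ATPase of the calcium signalling list (TR_81536) was the only one at least 2-fold below it, with 14.7 and 17.5 CPM in ∆*ypr2* in darkness and 63.6 and 55.5 CPM in the wildtype in light. It had 88.6 and 106 CPM in ∆*ypr2* in light and 4 and 5.72 CPM in the wildtype in darkness.

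The remaining members were 22 oxidoreductases, 30 other enzymes, 3 secreted or cell wall proteins and 69 proteins of unknown function. The largest deviations from the light level were found in the last of these groups. The orphan protein TR_106181 had 224 and 214 CPM in ∆*ypr2* in light, 248 and 255 CPM in the wildtype in light, 8.91 and 10.9 CPM in ∆*ypr2* in darkness and 2.18 and 0.381 CPM in the wildtype in darkness. TR_122614, TR_69811 (a gamma-glutamyltransferase, an enzyme that acts on glutathione), TR_105106 and TR_44175 were the other 4 of the 5 members with the lowest ratio of ∆*ypr2* in darkness to the wildtype in light, which lay between 0.0316 and 0.0856. At the other end, TR_103009 of unknown function had 8.63 and 7.58 CPM in ∆*ypr2* in light, 7.95 and 6.99 CPM in the wildtype in light, 85 and 126 CPM in ∆*ypr2* in darkness and 1.92 and 2.4 CPM in the wildtype in darkness. TR_60370, TR_110167, TR_121653 and the amidohydrolase TR_110757 followed, with ratios between 5.67 and 6.99, against 13.3 for TR_103009. By role, the median log2 ratio of ∆*ypr2* in darkness to the wildtype in light was lowest for spore and light genes (-0.32) and highest for stress genes (1.07), and the other roles lay between -0.28 and 0.36. Within most roles the members spread further than these medians differ.

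**Figure D4:**
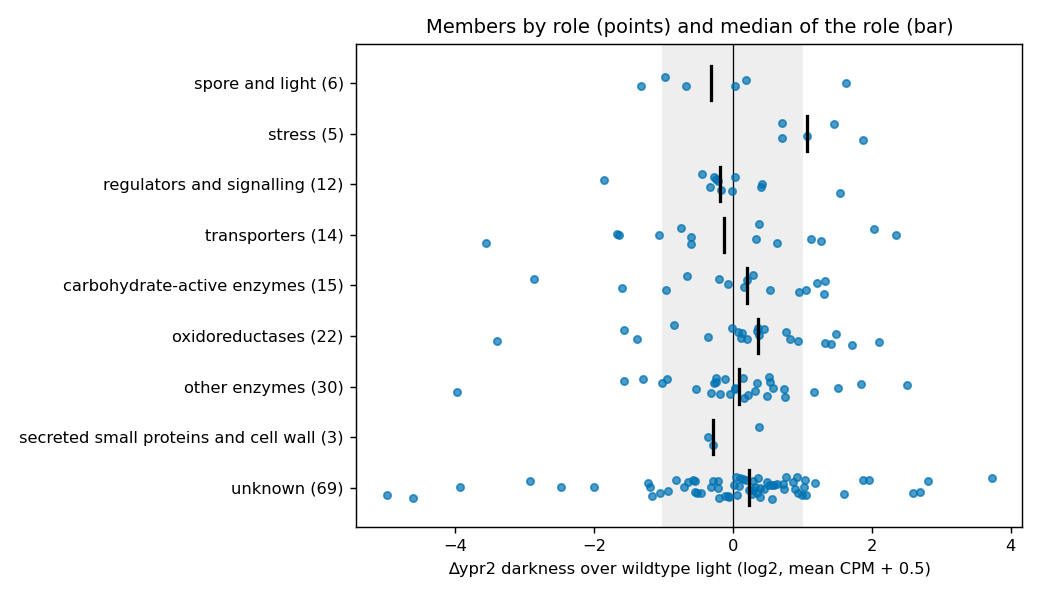
Log2 ratio of ∆*ypr2* in darkness to the wildtype in light (mean CPM + 0.5) for each member (points) by role, with the number of members in parentheses, the median of the role as a black bar and a 2-fold difference as a grey band; vertical scatter within a role carries no value. The 5 stress genes lie right of 0, with a median of 1.07, while transporters and proteins of unknown function reach far to both sides.

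Levels of different genes were compared per kb of gene span, introns included. In the wildtype in light, *ccg-1* had 3719 CPM per kb, followed by the sugar transporter TR_44175 with 2864 CPM per kb and TR_110879 of unknown function with 1587 CPM per kb. In ∆*ypr2* in darkness, *ccg-1* was again highest, with 2335 CPM per kb, while TR_44175 had 245 CPM per kb. TR_44967 of unknown function, which had 466 CPM per kb in the wildtype in light, reached 1707 CPM per kb in ∆*ypr2* in darkness.

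A comparison of ∆*ypr2* with the wildtype in light was not itself a ratio of the choice, although its wildtype cultures were used there. With edgeR's quasi-likelihood test, 0 members were called higher and 2 (1.14%) lower in ∆*ypr2* in light, at an adjusted p under 0.01 and at least 2-fold. At an unadjusted p under 0.05 (edgeR), 8 members were higher and 45 lower, and with DESeq2 0 were called higher and 1 lower. Over all 8469 genes tested, 0.378% were called higher and 0.142% lower. Wildtype cultures in light were part of the choice, so that the direction of this comparison is not independent of it. The median log2 fold change was -0.09 over members (-1.09 to 0.70) and -0.00 over all genes tested. For 161 of the 174 members not called, the 95% interval of the fold change stayed within 2-fold in both directions, and for 13 it did not.

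The 2 members called lower were the gamma-glutamyltransferase TR_69811 and the orphan protein TR_122614. TR_69811 had 16.6 and 14.1 CPM in ∆*ypr2* in light, against 31.3 and 33.1 CPM in the wildtype in light, which is -1.09 ± 0.14 on the log2 scale (estimate ± SE of the fold change here and below; edgeR, adjusted p = 0.00316). TR_122614 had 111 and 79.7 CPM in ∆*ypr2* in light, against 195 and 199 CPM in the wildtype in light (log2 fold change -1.06 ± 0.16, edgeR, adjusted p = 0.00586). The groups did not overlap for either gene. Both calls depended on single cultures, since 0 members were called without the first or the second wildtype culture from light or without the second ∆*ypr2* culture from light, and 1 without the first ∆*ypr2* culture from light. With no limit on the fold, 1.0% of all genes tested were lower and 1.17% higher at an adjusted p under 0.01. Of the members, 12 (6.82%) were lower and 2 (1.14%) higher, a direction not independent of the choice, which used the wildtype in light.

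Among these was an aspartyl protease (TR_53961), with 29.5 and 27.6 CPM in ∆*ypr2* in light, against 52.9 and 50.2 CPM in the wildtype in light (log2 fold change -0.87 ± 0.09, edgeR, adjusted p = 0.00094). TR_70894 of unknown function had 13.8 and 14.4 CPM in ∆*ypr2*, against 26.3 and 27.5 CPM in the wildtype (-0.95 ± 0.09, edgeR, adjusted p = 0.00094). Others on the lower side were a short chain dehydrogenase (TR_58675, -0.80 ± 0.12), a dipeptidyl aminopeptidase (TR_107669, -0.72 ± 0.10) and a cytochrome P450 monooxygenase (TR_61212, -0.44 ± 0.06). The 2 on the higher side were TR_123911 of unknown function (0.58 ± 0.09) and the serine/threonine phosphatase PTC2 (TR_81136), which had 761 and 830.1 CPM in ∆*ypr2* in light, against 609 and 544 CPM in the wildtype in light (0.45 ± 0.08, edgeR, adjusted p = 0.0097). The light level of *ccg-1* differed by -0.37 ± 0.08 (95% interval -0.55 to -0.20; edgeR, adjusted p = 0.026), and that of TR_44175 by -0.44 ± 0.18 (95% interval -0.84 to -0.05; edgeR, adjusted p = 0.226), neither of which was called.

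A further comparison asks whether members still differed between light and darkness in ∆*ypr2*. In this strain 15 members were called higher in light and 34 lower in light, while 127 were not called (edgeR). Of all genes tested, 3.81% were called higher and 13.3% lower. Dark ∆*ypr2* cultures were part of the choice here, so that the excess of lower over higher values is not read as a finding. The median log2 fold change was -0.38 over members (-3.78 to 4.38) and -0.00 over all genes tested. For 92 of the members not called, the 95% interval stayed within 2-fold in both directions, and for the other 35 members it reached beyond.

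**Figure D5:**
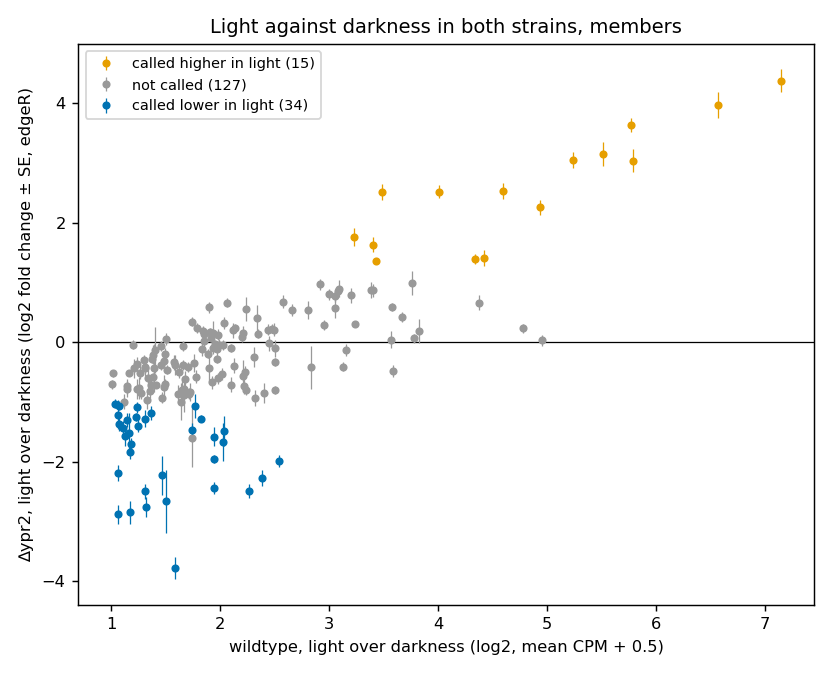
Log2 ratio of light to darkness in the wildtype (horizontal axis, mean CPM + 0.5, used to choose the members) against the log2 fold change of light over darkness in ∆*ypr2* (vertical axis, edgeR, bars ± standard error) for the 176 members. The 15 members called higher in light in ∆*ypr2* lie right of 3 on the horizontal axis, and the 34 called lower lie left of 3.

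Members called higher in light in ∆*ypr2* were members whose level in dark ∆*ypr2* cultures stayed below the light level. All 15 were among the 25 members with dark ∆*ypr2* at least 2-fold below the wildtype in light, and 30 of the 34 called lower were among the 33 at least 2-fold above, which in part follows from dark ∆*ypr2* cultures standing in both ratios. The highest fold changes were those of TR_106181 (log2 4.38 ± 0.19, edgeR, adjusted p = 7.7e-08), TR_122614 (3.97 ± 0.21), TR_105106 (3.63 ± 0.12), TR_69811 (3.16 ± 0.20), the short chain dehydrogenase TR_40808 (3.05 ± 0.14) and the sugar transporter TR_44175 (3.04 ± 0.19). The transcript of TR_44175 was thus higher in light also without *ypr2*, with 4442 and 3627 CPM in ∆*ypr2* in light, against 371 and 559 CPM in ∆*ypr2* in darkness. A carbohydrate esterase of family CE10 (TR_57914) was higher in light by 2.54 ± 0.14, and a WSC domain protein (TR_102735) by 2.52 ± 0.11. The cation transporting ATPase TR_81536 (2.52 ± 0.13), the MFS permease TR_65153 (1.76 ± 0.15), the potassium/proton antiporter TR_35777 (1.64 ± 0.12), phosphoenolpyruvate carboxykinase TR_124115 (1.42 ± 0.14; edgeR, adjusted p = 1.7e-05) and *faa2* (TR_4941, 1.36 ± 0.05) were also called higher. The remaining 2 were TR_109282 (2.26 ± 0.12) and the orphan protein TR_107494 (1.40 ± 0.09).

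Members called lower in light in ∆*ypr2* included TR_103009 (log2 fold change -3.78 ± 0.19, edgeR, adjusted p = 1.8e-07), the amidohydrolase TR_110757 (-2.88 ± 0.16), TR_60370 (-2.85 ± 0.20) and TR_110167 (-2.77 ± 0.17). The zinc-binding oxidoreductase TR_21876 (-2.66 ± 0.53; edgeR, adjusted p = 0.00207) rested on an unequal pair, since it had 5.81 and 6.58 CPM in ∆*ypr2* in light, against 56.9 and 18 CPM in ∆*ypr2* in darkness, and its call was lost without either light culture (adjusted p = 0.021 without the first and 0.019 without the second). Of the stress genes, *cat-1* (TR_67538, -1.99 ± 0.09; edgeR, adjusted p = 1.3e-07), the peroxidase TR_5182 (-1.40 ± 0.11) and the AAA ATPase TR_2687 (-1.21 ± 0.24) were called lower in light in ∆*ypr2*. The call of TR_2687 was lost without the second dark ∆*ypr2* culture (log2 fold change -0.70) and without the first light culture (adjusted p = 0.0237). HSP104 (TR_80142, -0.81 ± 0.12) and SOD1 (TR_110471, -0.71 ± 0.13) stayed under the 2-fold limit. Of the spore and light genes, *ccg-14* (TR_82662, -2.23 ± 0.32) was called lower in light. The values of *con-10* (TR_5084, 1.00 ± 0.20), *dtr1* (TR_102953, 0.68 ± 0.11) and *ccg-1* (TR_73516, 0.23 ± 0.08) were positive but not called, and that of *con-10*, which lies at the 2-fold limit, was called under 5 of the alternative settings.

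By role, transporters split into 3 called higher in light and 4 called lower in ∆*ypr2*, the lower ones including the MFS permeases TR_62380 (-2.49 ± 0.13) and TR_105260 (-2.49 ± 0.13). The oxidoreductases held 1 called higher and 5 called lower, with formate dehydrogenase TR_121298 (-1.06 ± 0.07; edgeR, adjusted p = 1.4e-06), the cytochrome P450 TR_67964 (-1.48 ± 0.12) and the zinc-binding oxidoreductase TR_44965 (-1.95 ± 0.07) among the lower. The value of formate dehydrogenase lies at the 2-fold limit, and its call was lost without the second dark ∆*ypr2* culture (-0.98). Of the 12 regulators, the ATPase TR_81536 was called higher and the bZIP regulator TR_109538 (-1.58 ± 0.16) lower, while the 8 zinc cluster regulators lay between -0.51 and 0.21. The 30 other enzymes held 3 called higher and 4 called lower, the plasma membrane H+ ATPase (TR_76238, -1.83 ± 0.12) being one of the lower. Of all genes tested, 3.81% were called higher and 13.3% lower, and dark ∆*ypr2* cultures were part of the choice. The counts by role are therefore only a description.

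Other genes of the pathways of these members were followed in the comparison of light and darkness in ∆*ypr2*. In the list of 7 asexual development genes, 3 were called lower in light in ∆*ypr2* (edgeR), which were *ccg-14* and the non-members *con-13* and *ccg-13*. Of 7 heat shock protein genes, 3 were called lower in light in ∆*ypr2*. They were TR_2687, Hsp23 (TR_122363) and Hsp26/Hsp42 (TR_46285), of which the last met the ratios but was among the genes left out. Of 4 catalase genes, *cat-1*, *cat-3* (TR_58472) and *cat-7* (TR_120371) were called lower in light in ∆*ypr2*, and TR_70600 was too low to be tested. The gene *cat-3* was listed at 0 in both wildtype cultures from light and had 74.7 and 99.3 CPM in ∆*ypr2* in darkness, so that, unlike *cat-1*, it had no higher level in the wildtype in light. Likewise, *cat-7* had 0.338 and 0.237 CPM in the wildtype in light, below its 3.17 and 3.54 CPM in the wildtype in darkness. Of 4 genes of the glyoxylate cycle and gluconeogenesis, phosphoenolpyruvate carboxykinase was called higher in light in ∆*ypr2* and a malate dehydrogenase (TR_62153), which is no member, lower. Of 4 trehalose genes, 3 were members, while the trehalose-6-phosphate synthase (TR_73134) did not reach the minimum level. Of 9 sulfur metabolism genes and 7 calcium signalling genes, 2 and 1 were members. In light in ∆*ypr2*, 4 of the sulfur metabolism genes were called lower, and of the calcium signalling genes 2 were called higher and 3 lower. These lists were chosen by the study or with its results known, and are not independent evidence of a direction.

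Members lay on 37 scaffolds (assembly v2.0), and no more than 2 of them stood side by side. Of the 176 members, 24 (13.6%) had another member as direct neighbour, in 12 pairs, while 3.81% of all 9116 placed genes had a member as direct neighbour. The gene *ccg-1* and TR_53777 of unknown function form the first pair on scaffold 1. Further pairs on this scaffold were TR_53824 (a secreted protein) with TR_103009, the chitinase TR_119859 with the phytanoyl-CoA dioxygenase family protein TR_103108, and TR_103147 with the aspartyl protease TR_53961. On scaffold 10, a catechol dioxygenase (TR_62165) lay beside TR_78462 (L-carnitine dehydratase/alpha-methylacyl-CoA racemase). The 2 genes of a pair could differ in pattern. TR_53824 had 25.7 and 37.4 CPM in ∆*ypr2* in darkness and 42.9 and 37.8 CPM in the wildtype in light, while TR_103009 had 85 and 126 CPM in ∆*ypr2* in darkness and 7.95 and 6.99 CPM in the wildtype in light.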

How the data were processed

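RNA-seq libraries (single reads) of 8 cultures were assigned to strain, light condition and replicate by their labels. Per the labels, the authors used Bowtie2, SAMtools, bedtools and RSEM; version numbers were not given in the sources used here. Deposited by the authors was a table named after FPKM, whose values were taken here to be expected counts. This rests on the values alone: 71.8 to 80.6% of those in a library were whole numbers, and the totals differed. No replicates were pooled.

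Expected counts were rounded and tested with edgeR 4.0.16 in R 4.3.3 (quasi-likelihood F test, two-sided, TMM, 1 mean per group over all 8 libraries, 4 residual degrees of freedom). A gene was tested at 0.5 CPM or more in at least 2 libraries (8469 of 9143 genes, and all 176 members). A call needed a Benjamini-Hochberg adjusted p under 0.01 and a 2-fold change. DESeq2 1.42.0, other scalings, filters, a replicate block and leaving out each culture were alternatives.

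The members and lists were chosen with earlier results of these data known, and the ratios used to choose members were not tested. Named genes were those with the highest level in each role, those called in light between the strains, those at either end of the ratios, those next to a threshold and members of the lists; further called members were named after their values were seen. Roles and gene names come from the annotation columns of the supplement of the study, which cover only genes that the study called (1142 of 9143). Start and end positions come from RefSeq (assembly v2.0), and scaffold numbers from the names of the gene models. P-values weigh a difference between group means against a spread estimated from the 2 cultures of all 4 groups together, with information shared across genes. They do not describe the spread of the compared groups alone.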

Additional observations from a re-analysis of the deposited data

How the results depend on the processing

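The number of members lay between 159 and 187 when a culture was left out, and was 122 with 2 CPM in place of 0.5 CPM added to the means, 193 with a minimum of 1 CPM and 160 with TMM-scaled CPM. Of the comparisons, light against darkness in ∆*ypr2* changed little: 15 to 20 members were called higher and 33 to 37 lower without single cultures, and with DESeq2 16 were higher and 34 lower. The medians over members lay between -0.41 and -0.27 in this comparison and between -0.16 and -0.08 between the strains in light.

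Calls between the strains in light were less stable. Members called lower numbered 0 to 2 without single cultures and 1 with DESeq2. Over all genes, 7 to 44 were called higher and 3 to 17 lower without single cultures, against 32 and 12 with all. Higher calls numbered 50 with DESeq2, 54 with only the 4 libraries from light, and 53 at an adjusted p under 0.05, where 22 were lower. The causes were not tested. Where a culture was left out, its partner was assumed to vary like the other groups.

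Replicate numbers did not pair the cultures (correlations of deviations -0.08 to 0.05 between groups), and a fit with a replicate block called 15 members higher and 35 lower in light in ∆*ypr2*, and 0 higher and 2 lower between the strains in light. For 55 tests of single genes in the text, 880 alternative values gave 13 lost calls, 9 gained calls and 0 changes of direction. With 2 cultures per group and 16.9 to 22.9 Mio counts per library, differences near 2-fold and genes of few counts are the least certain.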
